A study of Mus musculus with 12 samples.

Results

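The genes described here are 34 markers of astrocyte reactivity in mouse brain, 10 called pan-reactive, 12 called A1 and 12 called A2, out of 41388 genes in the deposited tables. They were chosen by symbol from the published classes, and all 34 matched a gene identifier. The series profiled astrocytes of aged C57BL\6 mice carrying floxed Bmal1 alleles (Bmal fl/fl; ALDH1L1-CreERT2), in which a tamoxifen-inducible Cre is driven by the astrocyte promoter Aldh1l1. Mice labelled Cre+ are called KO, and their Cre- controls WT. Tamoxifen was given to all of the mice, KO and WT alike (age 2 months, 2 mg daily on 5 days), and tissue was collected at the age of 20 months. Dissociated brain cells were passed over beads that bind ACSA-2, a surface antigen of astrocytes. The bound cells are called astrocytes below, and the unbound remainder flowthrough. The 12 libraries fell into 4 groups: KO astrocytes (mice 60, 62, 73 and 132), WT astrocytes (mice 56, 57, 64 and 78), KO flowthrough (mice 60 and 132) and WT flowthrough (mice 56 and 64). The flowthrough libraries therefore came from 4 of the 8 mice that also gave astrocytes.

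Astrocytes answer injury, infection and ageing with changes in shape and gene expression that are together called reactivity. Pan-reactive genes were defined as those that rise after both inflammatory and ischaemic injury, A1 genes as those that rise more after lipopolysaccharide, and A2 genes as those that rise more after ischaemia. The A1 class is rich in antigen presentation, complement and interferon-induced genes, and microglial IL-1α, TNF and C1q are known inducers of it. The A2 class holds cytokine, prostaglandin and membrane protein genes. Several members, among them Cd14, Srgn and C3, are also known as genes of microglia and other myeloid cells. BMAL1, encoded by Arntl, is the clock factor that with CLOCK binds the E-box CACGTG.

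Total counts were 38691406 to 51551942 per library, so that a count of 3, used as the floor, equals 0.0582 to 0.0775 CPM (the count scaled to a common library size). Each library was a separate mouse within its group. Arntl had 401, 428, 645 and 628 raw counts in KO astrocytes 60, 62, 73 and 132, against 360, 239, 242 and 374 in WT astrocytes 56, 57, 64 and 78. Every KO library lay above every WT library, so Arntl was not lower in KO (log2 fold change, KO over WT, 0.66 ± 0.19, edgeR adjusted p = 0.473). A count over all exons need not see a deletion of some of them, and KO and WT below mean libraries labelled so. All 10 astrocyte markers were higher in astrocytes than in flowthrough, while all 10 microglia and all 6 neutrophil markers were lower. Also higher in astrocytes were all 8 neuron markers and 5 of 10 oligodendrocyte markers (edgeR). KO astrocytes 73 and WT astrocytes 78 were female-type by Xist and Ddx3y, and the other 10 libraries male-type. KO 73 and WT 78 stood at opposite ends in microglia RNA. The summed level of 10 microglia markers was 2364 CPM in KO 73 and 480 CPM in WT 78. It was 500 to 981 CPM in the other 6 astrocyte libraries. Other cells did not all share this order, as neuron markers summed to 1100 CPM in KO 73 and 2477 CPM in WT 78. The male-type libraries alone, 3 KO and 3 WT, are given as a second value for the class medians and for several of the genes.

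All levels below are CPM scaled by TMM factors over the 12 libraries, and levels of different genes are compared only per kilobase of summed exon length. Per kilobase, H2-D1, a classical MHC class I heavy chain, stood first with a mean of 129 CPM per kilobase over the 8 libraries. S100a10, the partner of annexin A2, followed at 41.5, Tm4sf1, a membrane protein of endothelial and other cells, at 35.3, and H2-T23, a non-classical MHC class I gene, at 27.7. The ranges of Tm4sf1 (13.02 to 71.2) and S100a10 (31.4 to 64.5) overlapped, so their order does not stand beyond the spread between libraries. Serpina3n, a protease inhibitor and the highest pan-reactive gene, had 13.4 CPM per kilobase, and Lcn2, which encodes the siderophore-binding protein lipocalin, had 10.5 on the strength of WT 64 at 56.7. C3, the central complement protein often used as the A1 marker, averaged 2.32. At the other end, Ptx3, a secreted pentraxin, and Tgm1, a transglutaminase, averaged 0.0622 and 0.0595 CPM per kilobase. Their raw counts in astrocytes were 2 to 33 in KO and 0 to 8 in WT for Ptx3, and 1 to 24 and 1 to 14 for Tgm1. Both failed the filter on low counts for the astrocyte comparison, and Ptx3 also for the other comparisons, so 32 members were tested in astrocytes and 33 elsewhere.

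**Figure D1:**
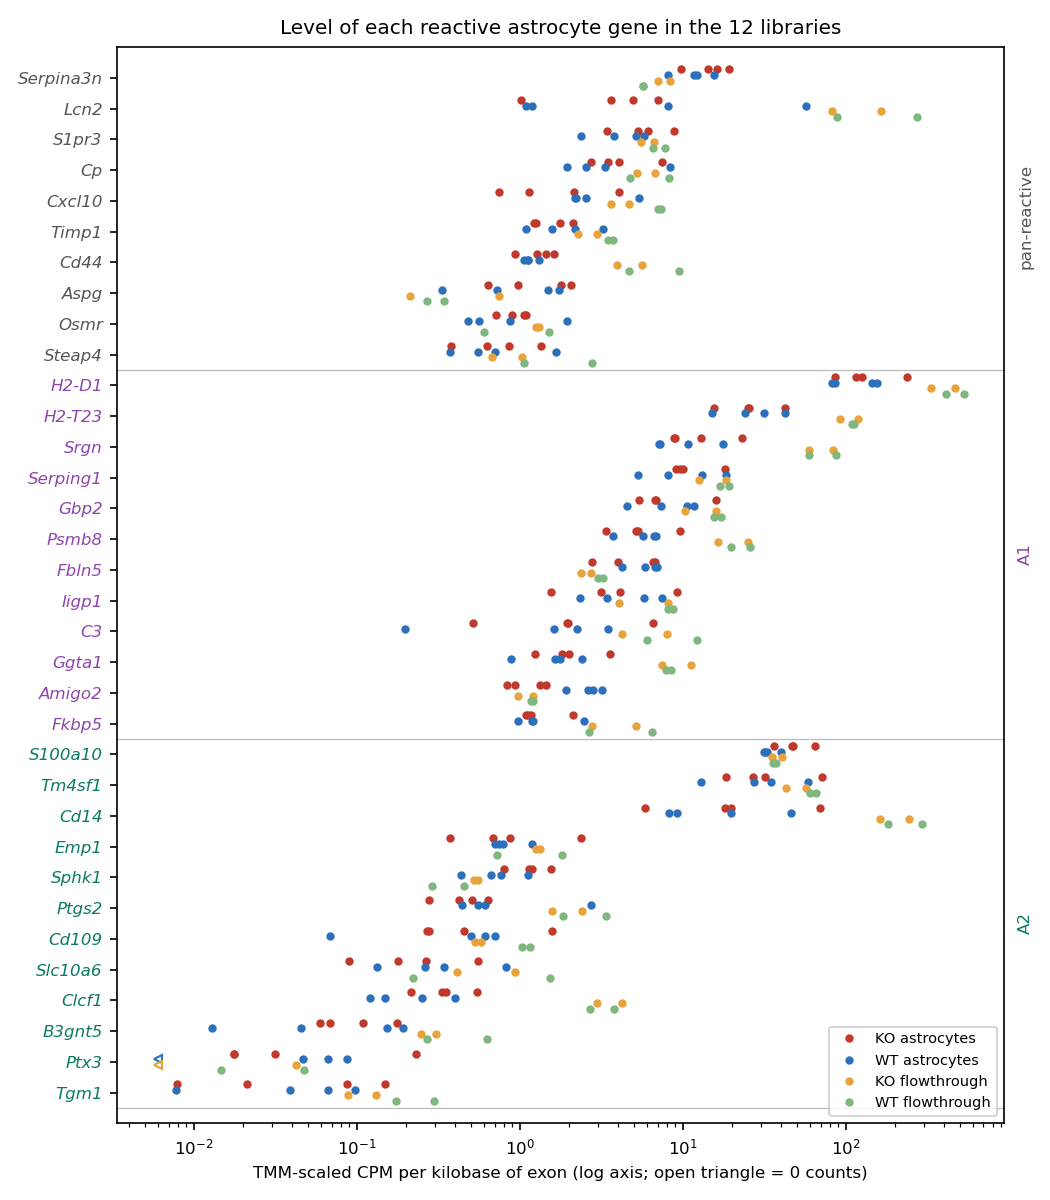
Level of each of the 34 genes in each library, in TMM-scaled CPM per kilobase of exon on a log axis; each point is 1 library, coloured by group, and genes are sorted within class by their mean in astrocyte libraries. The means in astrocyte libraries reach 129 for H2-D1 and go down to 0.0595 for Tgm1, and Cd14, Srgn and Lcn2 lie far to the right in the flowthrough libraries.

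The first question is whether these genes differed between the libraries labelled KO and WT in astrocytes of the aged brain. No member passed the test in either direction. Of 32 tested, 0 had an adjusted p under 0.05 in edgeR's quasi-likelihood test with Benjamini-Hochberg adjustment over 18527 genes, where 0.232% of all genes passed. With limma-voom the count was also 0, and with DESeq2 it was 1, Amigo2. An unadjusted p under 0.05 was found for 2 members, Amigo2 lower and S100a10 higher, against 5.37% of all genes. The groups did not overlap in 1 member, against 4.06% of all genes. By class, the median log2 fold change (KO over WT) was 0.06 over 10 pan-reactive genes, 0.04 over 12 A1 genes and 0.39 over 10 A2 genes, against 0.00 over all tested genes. Values above 0 were found for 5 of 10 pan-reactive, 7 of 12 A1 and 8 of 10 A2 genes, against 50.8% of all genes.

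**Figure D2:**
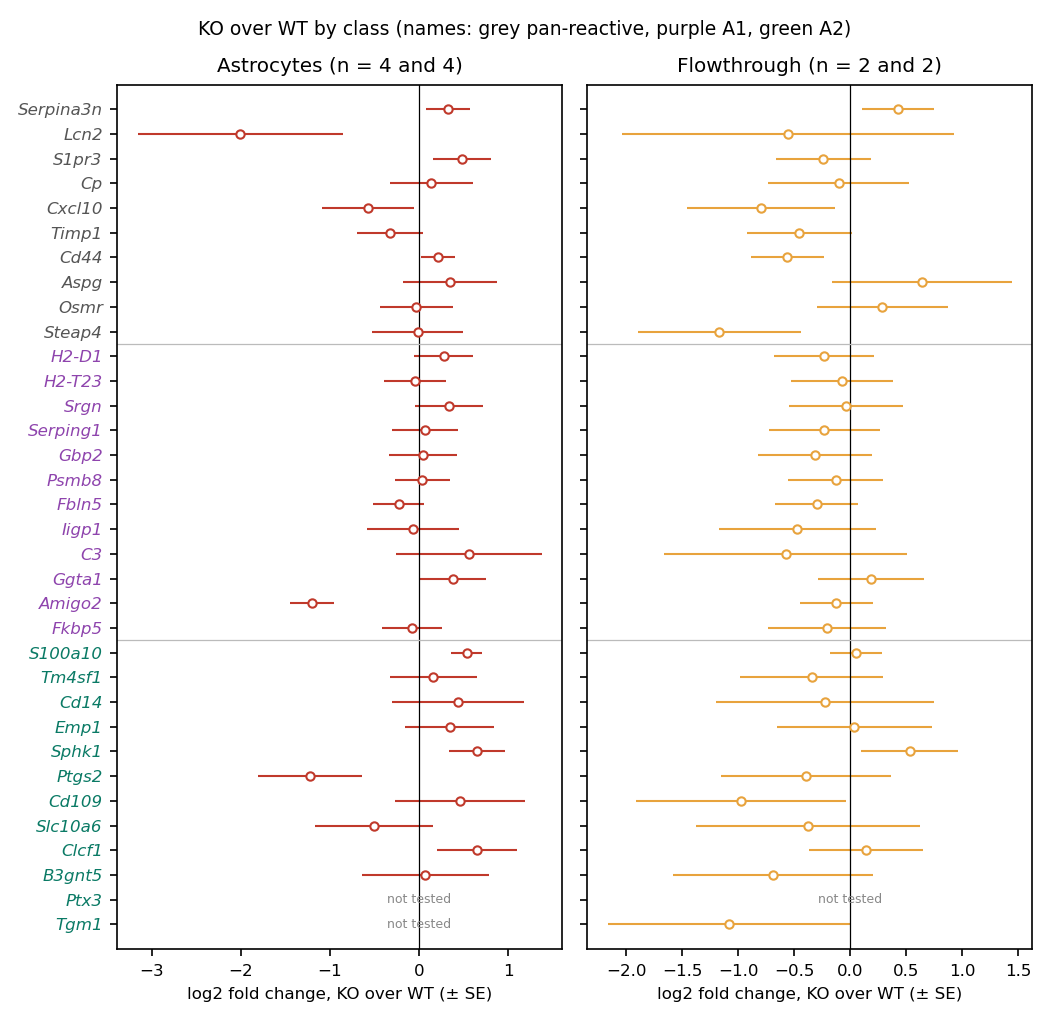
Log2 fold change of KO over WT (point) with its standard error (line) for each gene in astrocytes (n = 4 mice each) and in flowthrough (n = 2 mice each); open points have an adjusted p of 0.05 or more, and the horizontal scales of the panels differ. Every point is open, Amigo2 in astrocytes lies farthest from 0 for its error, and Lcn2 has the widest error.

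Amigo2, an A1 gene for a neuronal and glial adhesion molecule, had the smallest p of all members. Its level was 3.81, 2.68, 2.40 and 4.19 CPM in KO astrocytes 60, 62, 73 and 132, against 8.03, 7.504, 9.19 and 5.51 CPM in WT astrocytes 56, 57, 64 and 78. Every KO library lay below every WT library. The means were 3.27 ± 0.87 CPM in KO and 7.56 ± 1.54 CPM in WT (SD, n = 4 each), and the log2 fold change of -1.20 ± 0.25 (SE) did not pass (edgeR adjusted p = 0.146). DESeq2 called it (adjusted p = 0.00124), and over all 17 alternatives the fold change lay between -1.34 and -1.08 and the adjusted p between 0.00124 and 0.425. In flowthrough the level was 3.47 and 2.81 CPM in KO 60 and 132, against 3.46 and 3.38 CPM in WT 56 and 64, which overlapped (-0.12 ± 0.33, edgeR adjusted p = 1). The difference between the KO effect in astrocytes and that in flowthrough was -1.09 ± 0.40 on the log2 scale (edgeR adjusted p = 0.934). Amigo2 lies on chromosome 15 from 97244074 to 97247287 (GRCm38, minus strand), and its exons overlap an exon of Pced1b on the other strand. Since no strand setting is given in the sources used here, reads of the overlapping exons cannot be told apart.

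Because BMAL1 acts through the E-box, the promoters of the members were searched for CACGTG, a palindrome that reads the same on both strands. The RefSeq promoter table (GRCm38.p6, 250 bases before to 50 after each start) held 37 promoters of 28 members. CACGTG was present in 4 promoters of 3 members, Fkbp5, Ptgs2 and Sphk1, and in 7.15% of all 32851 promoters. The Amigo2 promoter did not hold these letters in this window. Its 250 bases before the start (chr15:97247288-97247537, minus strand) are shown because Amigo2 had the smallest p among the members:
Amigo2: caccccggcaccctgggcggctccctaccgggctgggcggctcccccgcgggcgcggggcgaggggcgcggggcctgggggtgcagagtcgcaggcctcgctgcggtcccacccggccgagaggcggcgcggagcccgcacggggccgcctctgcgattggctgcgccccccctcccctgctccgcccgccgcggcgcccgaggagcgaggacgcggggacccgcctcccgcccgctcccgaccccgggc
The E-box of the 3 other genes is shown within 30 bases, with CACGTG in capitals, since these are the members whose promoter holds the letters of the factor's site. The windows are chr17:28486301-28486330 (minus strand) for Fkbp5, chr1:150100035-150100064 (plus strand) for Ptgs2 and chr11:116532337-116532366 (plus strand) for Sphk1:
Fkbp5: gcaagggccagaCACGTGggcagcggtgaa
Ptgs2: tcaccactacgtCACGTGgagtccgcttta
Sphk1: catacaccggggCACGTGtgcattttcacc
The first base of the E-box lay 169 bases before the start of Fkbp5, 95 bases before that of Sphk1 in the promoter nearest to it, and 16 bases after that of Ptgs2. Their log2 fold changes in astrocytes were -0.08 ± 0.33 for Fkbp5, -1.22 ± 0.58 for Ptgs2 and 0.65 ± 0.31 for Sphk1, of which none passed the edgeR test (adjusted p = 0.996, 0.955 and 0.960). A match of letters is a description and shows no binding.

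S100a10, an A2 gene, was the other member with an unadjusted p under 0.05. It had 78.2, 57.1, 44.1 and 57.7 CPM in KO astrocytes 60, 62, 73 and 132, against 38.6, 40.1, 38.0 and 48.5 CPM in WT astrocytes 56, 57, 64 and 78. KO 60, 62 and 132 lay above every WT library, and KO 73 lay below WT 78, the female-type libraries of the 2 groups. The log2 fold change was 0.53 ± 0.17 (edgeR adjusted p = 0.616). It was 0.73 in the male-type libraries alone (edgeR adjusted p = 0.135), and also 0.73 with a covariate for RNA of other cells, where it passed (edgeR adjusted p = 0.0161). Flowthrough levels were 49.2 and 42.8 CPM in KO 60 and 132, against 45.5 and 43.5 CPM in WT 56 and 64. S100a10 lies on chromosome 3 from 93555080 to 93564643 (GRCm38).

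A pair of A2 enzymes came next by p-value. Ptgs2, the inducible cyclooxygenase of prostaglandin synthesis, had 1.94, 2.32, 2.94 and 1.27 CPM in KO astrocytes 60, 62, 73 and 132, against 2.80, 2.55, 12.5 and 2.02 CPM in WT astrocytes 56, 57, 64 and 78. The groups overlapped, and WT 64 stood far above the other 7 libraries. The log2 fold change of -1.22 ± 0.58 (edgeR adjusted p = 0.955) was -0.21 without WT 64. Sphk1, which makes sphingosine-1-phosphate, had 5.69, 5.43, 3.84 and 7.42 CPM in KO 60, 62, 73 and 132, against 5.39, 3.66, 2.07 and 3.20 CPM in WT 56, 57, 64 and 78 (0.65 ± 0.31, edgeR adjusted p = 0.960). KO 60, 62 and 132 lay above every WT library and KO 73 among them. S1pr3, a pan-reactive receptor for the lipid that Sphk1 makes, had 15.3, 27.5, 39.7 and 23.7 CPM in KO 60, 62, 73 and 132, against 23.03, 17.1, 25.9 and 10.7 CPM in WT 56, 57, 64 and 78. These ranges overlapped (0.48 ± 0.33, edgeR adjusted p = 0.995). The male-type libraries alone gave 0.74 for Sphk1 and 0.01 for S1pr3.

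Lcn2, the pan-reactive gene with the smallest p, had 2.35, 8.41, 16.1 and 11.4 CPM in KO astrocytes 60, 62, 73 and 132, against 18.7, 2.73, 130.5 and 2.52 CPM in WT astrocytes 56, 57, 64 and 78. WT 64 alone held most of the WT sum. The log2 fold change was -2.01 ± 1.15 (edgeR adjusted p = 0.972), and over the alternatives it ran from -2.78 to 0.26, the highest value without WT 64. Lcn2 is also an abundant granule gene of neutrophils, whose 6 markers (S100a8 and others) summed to 15.7, 2.94, 193 and 115 CPM in KO 60, 62, 73 and 132, against 156, 17.1, 91.2 and 7.01 CPM in WT 56, 57, 64 and 78. The part of these cells in the Lcn2 values was not tested. Serpina3n had 20.2, 39.9, 33.3 and 29.3 CPM in KO 60, 62, 73 and 132, against 25.4, 16.7, 32.3 and 24.1 CPM in WT 56, 57, 64 and 78 (0.32 ± 0.24, edgeR adjusted p = 0.995), with overlapping groups.

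**Figure D3:**
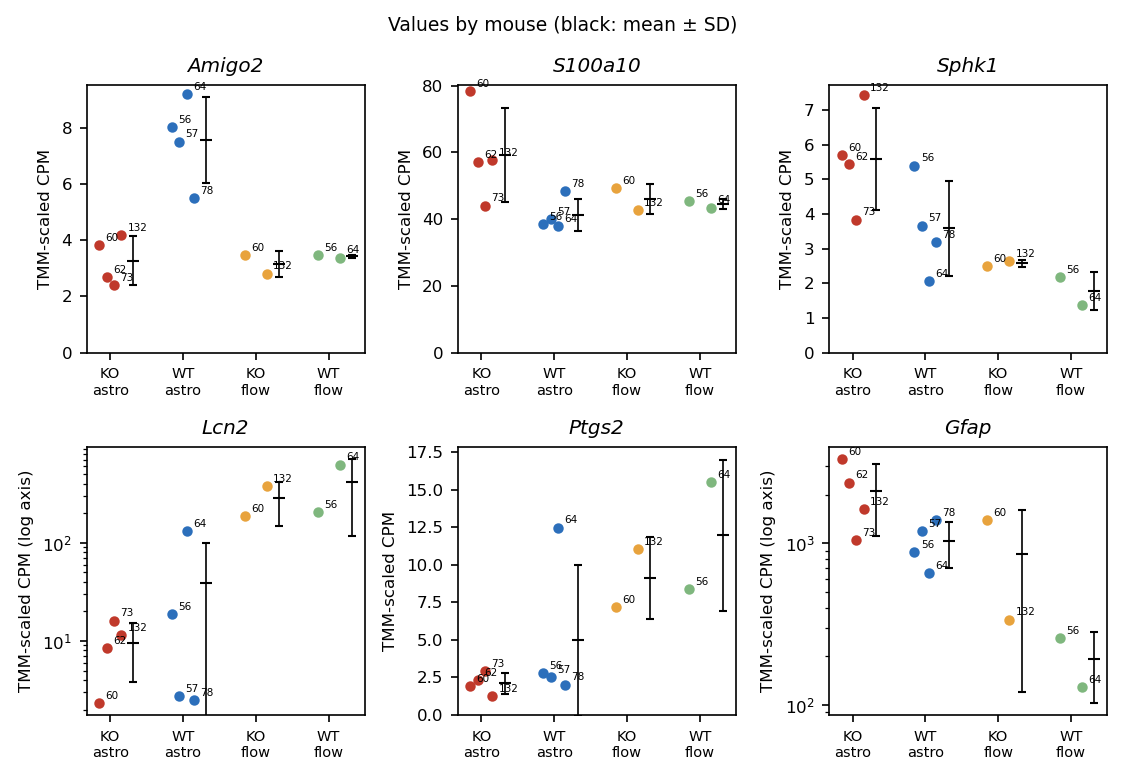
TMM-scaled CPM of Amigo2, S100a10, Sphk1, Lcn2, Ptgs2 and Gfap in each library, labelled by mouse number; black marks give the mean and SD of the group, bars that would pass below the axis end there, and Lcn2 and Gfap are on log axes. The 4 KO astrocyte values of Amigo2 (2.40 to 4.19) lie below the 4 WT values (5.51 to 9.19), and WT 64 stands apart in Lcn2 and Ptgs2.

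The other pan-reactive genes gave no call. The log2 fold changes in astrocytes were -0.02 for Steap4, a metalloreductase, 0.13 for Cp, the ferroxidase ceruloplasmin, -0.33 for Timp1, an inhibitor of matrix metalloproteinases, and -0.58 for Cxcl10, an interferon-induced chemokine. They were 0.21 for Cd44, the hyaluronan receptor, -0.03 for Osmr, the oncostatin M receptor, and 0.35 for Aspg, an asparaginase. Their standard errors ran from 0.19 (Cd44) to 0.53 (Aspg), and each had an adjusted p of at least 0.995 (edgeR).

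Antigen presentation genes of the A1 class did not pass the test, and their direction turned with the libraries used. H2-D1 had 221, 299, 610 and 325 CPM in KO astrocytes 60, 62, 73 and 132, against 371, 214, 402 and 222 CPM in WT astrocytes 56, 57, 64 and 78 (log2 fold change 0.27 ± 0.33, edgeR adjusted p = 0.995). H2-T23 had 45.2, 73.4, 123 and 73.1 CPM in KO 60, 62, 73 and 132, against 90.5, 69.6, 123 and 43.6 CPM in WT 56, 57, 64 and 78 (-0.05 ± 0.35, edgeR adjusted p = 0.996). In both genes KO 73 and WT 64 were the highest library of their group, and the groups overlapped. Psmb8, a subunit of the immunoproteasome, gave 0.04 ± 0.31. In the male-type libraries alone H2-D1, H2-T23 and Psmb8 gave -0.22, -0.56 and -0.47, and with the covariate for RNA of other cells -0.28, -0.57 and -0.49. The edgeR adjusted p lay between 0.144 and 0.816 in these fits. MHC class I genes are near-identical in parts, as are the families of Serpina3n, Gbp2 and Iigp1, and how reads shared between copies were counted is not given in the sources used here.

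Ggta1, which adds galactose to glycans, had 5.88, 9.38, 16.9 and 8.603 CPM in KO astrocytes 60, 62, 73 and 132, against 11.4, 4.13, 8.26 and 7.69 CPM in WT astrocytes 56, 57, 64 and 78 (log2 fold change 0.38 ± 0.37, edgeR adjusted p = 0.995). The groups overlapped, and the male-type libraries alone gave 0.0021. Complement genes of the class gave 0.55 ± 0.82 for C3 and 0.07 ± 0.37 for Serping1, the C1 inhibitor. C3 ran from 2.65 to 33.9 CPM in KO and from 1.012 to 17.8 CPM in WT astrocytes, with its lowest value in WT 78 and its highest in KO 73, and its log2 fold change was -0.36 without KO 73 and -0.73 in the male-type libraries alone. Serping1 gave -0.46 and Srgn -0.22 in those libraries. The interferon-induced GTPases Gbp2 and Iigp1 gave 0.04 ± 0.38 and -0.07 ± 0.52. Fkbp5, a co-chaperone of the glucocorticoid receptor, gave -0.08 ± 0.33, Fbln5, an elastic fibre protein, -0.23 ± 0.28, and Srgn, the core protein of secretory granule proteoglycan, 0.33 ± 0.38.

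Among A2 genes, Tm4sf1 had 61.5, 90.7, 239 and 107 CPM in KO astrocytes 60, 62, 73 and 132, against 117, 92.2, 196 and 43.7 CPM in WT astrocytes 56, 57, 64 and 78 (log2 fold change 0.16 ± 0.49, edgeR adjusted p = 0.996). The groups overlapped over nearly their whole range, and the male-type libraries alone gave -0.64. Cd14, the co-receptor for lipopolysaccharide, gave 0.44 ± 0.74, Cd109, a membrane-anchored protein, 0.46 ± 0.73, and Emp1, an epithelial membrane protein, 0.34 ± 0.50. Each of these 3 had its highest astrocyte value in KO 73, and their sign turned without it, to -0.52 for Cd14, -0.50 for Cd109 and -0.40 for Emp1. The male-type libraries alone gave -0.78, -0.86 and -0.46 for Cd14, Cd109 and Emp1. None of these values passed the adjusted threshold. Clcf1, a cytokine of the CNTF receptor, gave 0.65 ± 0.45 from 0.80 to 2.02 CPM in KO and 0.45 to 1.48 CPM in WT astrocytes. Slc10a6, a transporter of sulphated steroids, gave -0.51 ± 0.66, and B3gnt5, a glycolipid glycosyltransferase, 0.07 ± 0.71 (-0.56 in the male-type libraries alone), both from fewer than 100 raw counts in every astrocyte library.

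Many members were highest or lowest in the same few mice. KO 73 was the highest of the 8 astrocyte libraries for 15 of 32 tested members, WT 64 for 11, and WT 78 was the lowest for 11. Over all tested genes, KO 73 was the highest in 25.4%, WT 64 in 8.91%, and WT 78 the lowest in 16.5%. The median of the 12 A1 genes, as log2(CPM + 0.5) relative to the mean of the 8 libraries, was -0.49, -0.16, 0.87 and -0.0029 in KO 60, 62, 73 and 132, against 0.26, -0.05, 0.60 and -0.57 in WT 56, 57, 64 and 78. Both groups thus spanned more than 1 log2 unit. Some marker lists of other cells, but not all, were likewise highest in KO 73. Border macrophage markers summed to 39.0, 86.9, 281 and 77.6 CPM in KO 60, 62, 73 and 132. In WT 56, 57, 64 and 78 they summed to 99.5, 31.95, 98.1 and 43.8 CPM, with WT 56 and WT 64 close together. Ependymal markers ran from 75.7 to 635 CPM in KO and from 36.0 to 444 CPM in WT, with KO 73 and WT 64 highest in their groups. Endothelial markers ran from 321 to 590 CPM in KO and from 251 to 709 CPM in WT, again with KO 73 and WT 64 highest. Neuron, astrocyte, oligodendrocyte and oligodendrocyte precursor markers were instead lowest in KO 73 within the KO group. Astrocyte markers summed to 19857.6, 22025.8, 10562.5 and 17797.1 CPM in KO 60, 62, 73 and 132. In WT 56, 57, 64 and 78 they summed to 17992.3, 18715.5, 16135.9 and 20257.5 CPM, so KO 73 lay below every other astrocyte library. Neuron markers summed to 1100 CPM in KO 73, 1708 CPM in WT 64 and 2477 CPM in WT 78. None of the markers in these lists was at 0 in all libraries. All 10 microglia, all 6 border macrophage, all 10 oligodendrocyte and all 6 choroid plexus markers had a KO over WT value above 0. Their median log2 fold changes were 0.55, 0.74, 0.78 and 0.34 in that order, and none of the markers passed the edgeR test. Other lists did not share this direction. Astrocyte markers were above 0 in 2 of 10 (median -0.23), neuron markers in 5 of 8 (0.02) and mural markers in 4 of 8 (0.02). In such bulk libraries, fewer cells of a type and less RNA per cell cannot be told apart.

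The direction of the classes depended on these libraries. In the 6 male-type astrocyte libraries (3 KO and 3 WT), 24 of 32 members had a log2 fold change below 0, against 12 of 32 with all 8 libraries, and the class medians were -0.38 (pan-reactive), -0.50 (A1) and -0.60 (A2), while the median of all genes was -0.01. An unadjusted p under 0.05 was found there for 11 of 32 members, 10 of them lower and 1 (S100a10) higher, against 9.42% of all genes, and 0 members passed adjustment. The 10 were Amigo2, Gbp2, Iigp1, Psmb8 and H2-T23 of the A1 class, Lcn2 and Cxcl10 of the pan-reactive class, and Ptgs2, Cd109 and Slc10a6 of the A2 class. With the 8 libraries and a covariate for RNA of other cells, 26 of 32 members were below 0, and 13 had an unadjusted p under 0.05, 11 of them lower, against 13.7% of all genes. Leaving out KO 73 alone gave class medians of -0.17, -0.34 and -0.39 (pan-reactive, A1, A2), leaving out WT 78 alone gave -0.16, -0.17 and 0.09, and leaving out WT 64 alone gave 0.37, 0.27 and 0.46. No direction of a class is therefore called.

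**Figure D4:**
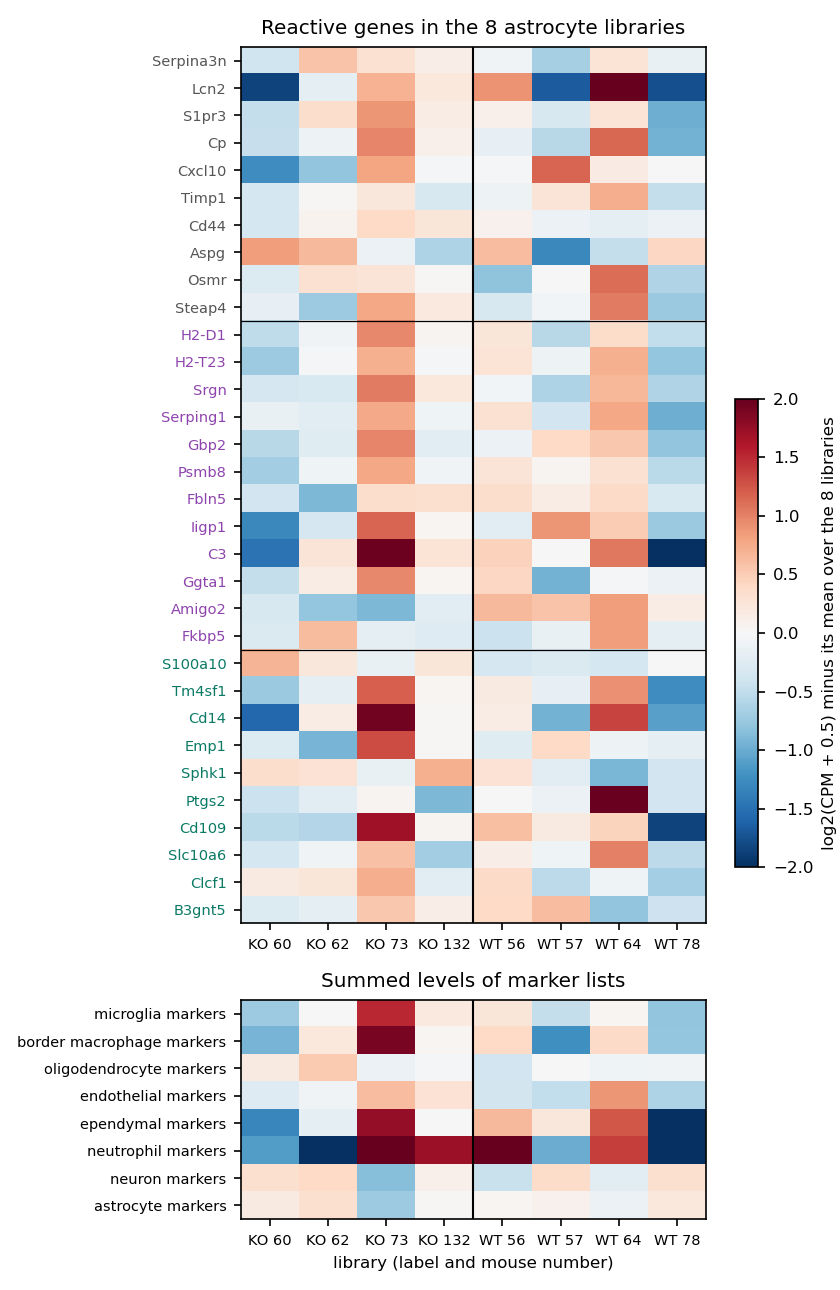
Upper panel: log2(CPM + 0.5) of the 32 tested genes in the 8 astrocyte libraries, minus each gene's mean over them (red higher, blue lower; KO left of the black line, WT right of it). Lower panel: the same for the summed CPM of the marker list of each named cell type. KO 73 and WT 64 are red for most genes and WT 78 is blue for most. The border macrophage, endothelial and ependymal markers are likewise red in KO 73 and WT 64 and blue in WT 78. Neuron markers go the other way, blue in KO 73 and red in WT 78.

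Other marks of reactivity lay outside the 3 classes. Gfap, the intermediate filament of reactive astrocytes, had 3330, 2374, 1041 and 1634 CPM in KO astrocytes 60, 62, 73 and 132, against 881, 1197, 653 and 1394 CPM in WT astrocytes 56, 57, 64 and 78. KO 60, 62 and 132 lay above every WT library, and KO 73 lay among them. The log2 fold change of 1.03 ± 0.36 did not pass (edgeR adjusted p = 0.683). With the covariate for RNA of other cells it was 1.51 (edgeR adjusted p = 0.00031), and in the male-type libraries alone Gfap gave 1.44 (edgeR adjusted p = 0.118). In flowthrough Gfap had 1385 and 337 CPM in KO 60 and 132, against 257 and 129 CPM in WT 56 and 64 (2.15 ± 0.68, edgeR adjusted p = 1). The 10 astrocyte markers summed there to 7612 and 3735 CPM in KO 60 and 132, against 4178 and 2859 CPM in WT 56 and 64, and their part in this value was not tested. Vim, another intermediate filament gene, gave -0.15 ± 0.20 in astrocytes, Maob, a monoamine oxidase, -0.32 ± 0.11 (edgeR adjusted p = 0.714), and Nes 0.39 ± 0.42 (-0.13 in the male-type libraries alone). Of the 8 tested genes of this list, 0 passed, and their median was -0.01.

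The pathways known to drive the classes gave 0 calls in KO against WT astrocytes among inducers of A1 reactivity and their receptors (10 tested, median 0.57), the gp130 and STAT3 pathway (10 tested, 0.08), the NF-kB pathway (10 tested, 0.07), MHC class I processing (12 tested, 0.03), complement (13 tested, 0.29) and interferon response (12 tested, 0.04). Of the inducers and receptors, 8 of 10 were lower in astrocytes than in flowthrough (edgeR, median of the list -3.19). As log2(CPM + 0.5) relative to the mean of the 8 libraries, their median was 1.49 in KO 73. It was -0.71 (KO 60) to 0.31 (WT 56) in the other astrocyte libraries. Among inducers and receptors, the smallest p values were those of Il1rap, the accessory chain of the IL-1 receptor (0.78 ± 0.32, edgeR adjusted p = 0.870), Tnfrsf1a, a TNF receptor (-0.34 ± 0.17), and the cytokine Il1a (1.02 ± 0.67), which was highest in KO 73 and gave -0.03 without it. In the gp130 pathway they were Il6st, which encodes gp130 (0.36 ± 0.15, edgeR adjusted p = 0.843), Jak1 (-0.08 ± 0.10) and Lifr (0.13 ± 0.18). Il6st was 53.7 to 57.1 CPM in KO and 32.1 to 50.8 CPM in WT astrocytes, without overlap. The NF-kB kinases Ikbkg (0.22 ± 0.13) and Ikbkb (0.27 ± 0.18) and the inhibitor Nfkbib (-0.18 ± 0.13) led their list. For MHC class I processing these were the proteasome activator Psme2 (0.17 ± 0.11), the regulator Nlrc5 (-0.55 ± 0.56) and the peptide transporter Tap1 (0.30 ± 0.37), and for interferon response Gbp3 (0.37 ± 0.18), Irf1 (-0.33 ± 0.21) and Ifit3 (-0.55 ± 0.35).

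Of the 8 genes of the glucocorticoid list, to which Fkbp5 is related, 1 passed. Hsd11b1, which regenerates active glucocorticoid, fell to 28.7, 34.7, 17.9 and 36.5 CPM in KO astrocytes 60, 62, 73 and 132, against 99.5, 96.3, 94.0 and 96.2 CPM in WT astrocytes 56, 57, 64 and 78 (log2 fold change -1.71 ± 0.20, edgeR adjusted p = 0.0122). It lost the call without KO 60 or without WT 57, at an adjusted p of at most 0.0561. Sgk1, a kinase induced by glucocorticoid, gave 0.94 ± 0.38 (edgeR adjusted p = 0.857) and Klf9, a glucocorticoid-induced factor that is also a clock output, -0.35 ± 0.16. Fkbp5 itself had its highest value in mouse 62 of the KO group (13.5 CPM, against 6.92 to 7.48 CPM in the other 3) and in mouse 64 of the WT group (15.7 CPM, against 6.21 to 7.71 CPM in the other 3).

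In flowthrough, which holds the cells not bound by the beads, no member passed either. Of 33 tested, 0 had an adjusted p under 0.05 with edgeR, DESeq2 or limma-voom, against 0.00476% of 20997 genes with edgeR, and 0 had an unadjusted p under 0.05, against 4.63% of all genes. The log2 fold change (KO over WT) was below 0 for 25 of 33 members: 7 of 10 pan-reactive, 11 of 12 A1 and 7 of 11 A2 genes. Above 0 were 24.2% of members, against 54.4% of all genes. The medians were -0.35, -0.22 and -0.34 (pan-reactive, A1, A2), against 0.04 over all genes. Without WT flowthrough 64 they were 0.19, -0.04 and 0.03. The 2 groups did not overlap in 10 of 33 members, against 33.6% of all genes.

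The flowthrough values farthest from 0 were those of Steap4 and Cd109 among the better counted genes. Steap4 had 2.11 and 3.24 CPM in KO 60 and 132, against 3.33 and 8.75 CPM in WT 56 and 64 (log2 fold change -1.17 ± 0.73). Cd109 had 3.68 and 3.97 CPM in KO 60 and 132, against 7.98 and 7.08 CPM in WT 56 and 64 (-0.98 ± 0.94). Cxcl10 had 5.52 and 7.08 CPM in KO 60 and 132, against 11.2 and 10.8 CPM in WT 56 and 64 (-0.80 ± 0.66). All 3 were lower in both KO libraries than in both WT libraries, and all 3 had an edgeR adjusted p of 1. Serpina3n went the other way, with 17.1 and 14.5 CPM in KO 60 and 132, against 11.7 and 11.8 CPM in WT 56 and 64 (0.43 ± 0.32, edgeR adjusted p = 1). Lcn2 had 188 and 377 CPM in KO 60 and 132, against 204 and 626 CPM in WT 56 and 64, and the 6 neutrophil markers summed to 2303 and 5100 CPM in KO 60 and 132, against 2521 and 8267 CPM in WT 56 and 64. In each group the mouse with more Lcn2 also had more neutrophil marker RNA, and the part of these cells was not tested. Ependymal markers were 189 and 324 CPM in KO 60 and 132, against 468 and 517 CPM in WT 56 and 64, and choroid plexus markers were likewise lower in both KO libraries. Endothelial markers went the other way, with 1113.5 and 1241 CPM in KO 60 and 132, against 611 and 936 CPM in WT 56 and 64. Neuron markers were also higher in both KO libraries, at 1033 and 499.5 CPM, against 488 and 384 CPM in WT 56 and 64. The part of all these cells in the member values was not tested.

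For most of the other members named above, KO and WT overlapped in flowthrough. H2-D1 had 863 and 1207 CPM in KO 60 and 132, against 1066 and 1370 CPM in WT 56 and 64. H2-T23 had 267 and 341 CPM in KO 60 and 132, against 315 and 325 CPM in WT 56 and 64. Tm4sf1 had 144 and 191 CPM in KO 60 and 132, against 204 and 221 CPM in WT 56 and 64, without overlap (log2 fold change -0.34 ± 0.64). S1pr3 had 25.0 and 29.7 CPM in KO 60 and 132, against 29.5 and 35.1 CPM in WT 56 and 64. Ggta1 had 34.9 and 53.0 CPM in KO 60 and 132, against 37.4 and 39.7 CPM in WT 56 and 64. Ptgs2 had 7.20 and 11.03 CPM in KO 60 and 132, against 8.40 and 15.5 CPM in WT 56 and 64. Sphk1 had 2.495 and 2.65 CPM in KO 60 and 132, against 2.17 and 1.38 CPM in WT 56 and 64, again without overlap (0.53 ± 0.43). None of these 7 passed (edgeR adjusted p = 1 for each).

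Whether the KO effect differed between the fractions was tested as an interaction. No member passed (0 of 33 with edgeR and with DESeq2, against 0% of all genes with edgeR), and 1, Amigo2, had an unadjusted p under 0.05, against 3.94% of all genes. The medians of the difference (astrocytes minus flowthrough) were 0.16, 0.23 and 0.49 for the pan-reactive, A1 and A2 classes, against -0.03 over all genes. Both effects share mice 60, 132, 56 and 64, and in the 8 libraries of those 4 mice, with the mouse as a replicate block, 0 members passed as well.

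The comparison of the fractions asks in which cells the RNA of these genes was found. Of 33 members tested, 20 passed, 5 higher and 15 lower in astrocytes (edgeR), against 49.2% of all genes, of which 24.8% were higher and 24.4% lower. Those higher in astrocytes were Aspg (log2 fold change, astrocytes over flowthrough, 1.66 ± 0.52), Sphk1 (1.06 ± 0.28), Serpina3n (1.01 ± 0.20), Fbln5 (0.96 ± 0.24) and Amigo2 (0.60 ± 0.20). The lower ones were 4 pan-reactive genes (Lcn2, Cd44, Cxcl10 and Timp1), 7 A1 genes (Srgn, Ggta1, H2-T23, Psmb8, H2-D1, C3 and Fkbp5) and 4 A2 genes (Clcf1, Cd14, B3gnt5 and Ptgs2). The class medians were -0.60 (pan-reactive), -1.65 (A1) and -1.22 (A2), against 0.00 over all genes. With the mouse as a block, which keeps only the 8 paired libraries, 29 members passed, 5 of them higher, and without WT flowthrough 64, 13 passed.

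**Figure D5:**
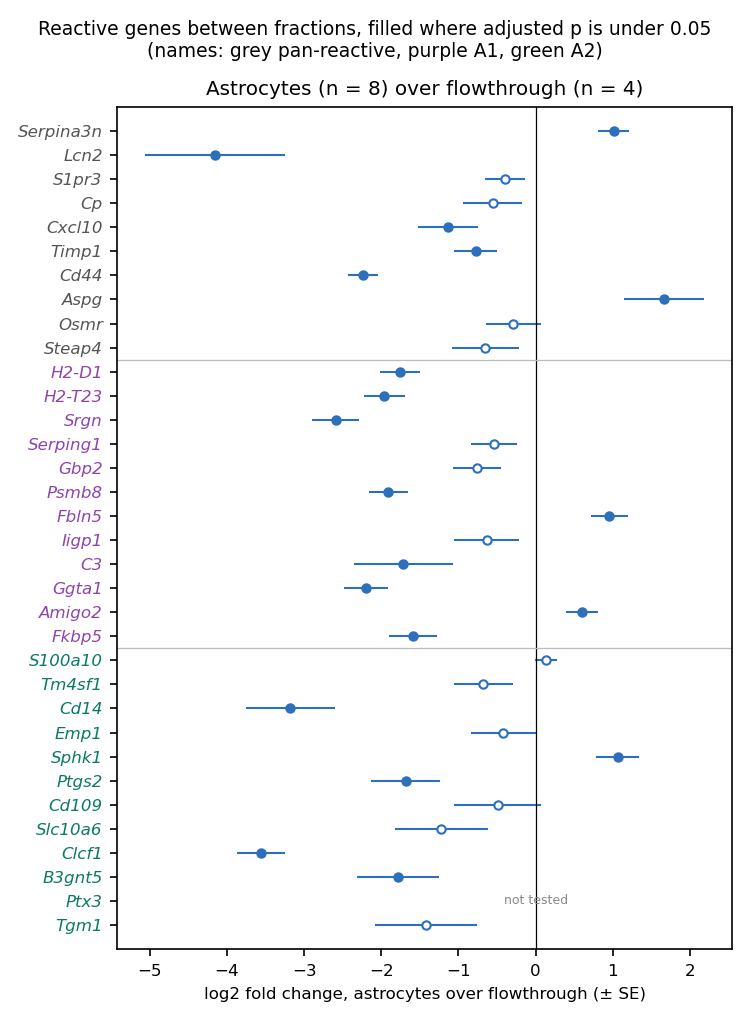
Log2 fold change of astrocytes (n = 8 libraries) over flowthrough (n = 4 libraries) with its standard error for each gene; filled points have an adjusted p under 0.05. Filled points lie right of 0 for Serpina3n, Aspg, Fbln5, Amigo2 and Sphk1 and left of 0 for 15 genes, with Lcn2 (-4.15) and Clcf1 (-3.56) farthest out.

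Lcn2 showed the largest gap between fractions among the members, at 2.35 to 16.1 CPM in KO and 2.52 to 130.5 CPM in WT astrocytes, against 188 to 377 CPM in KO and 204 to 626 CPM in WT flowthrough (log2 fold change -4.15 ± 0.90, edgeR adjusted p = 0.00289). Clcf1 followed, at 0.45 to 2.02 CPM over the 8 astrocyte libraries, against 10.1 to 15.6 CPM in flowthrough (-3.56 ± 0.31, edgeR adjusted p = 1.6e-05). Cd14 was 9.17 to 109 CPM in astrocytes, against 254 to 463 CPM in flowthrough (-3.18 ± 0.58, edgeR adjusted p = 0.00102). In these 3 genes no astrocyte library reached the lowest flowthrough library. The same held for Srgn (-2.59 ± 0.30), Cd44 (-2.23 ± 0.19), Ggta1 (-2.20 ± 0.28), H2-T23 (-1.96 ± 0.27), Psmb8 (-1.91 ± 0.25), B3gnt5 (-1.78 ± 0.54), H2-D1 (-1.76 ± 0.26) and Fkbp5 (-1.59 ± 0.31). Microglia markers fell by a median of 3.67 and neutrophil markers by 5.94 on the same log2 scale (all 10 and all 6 passed), and the part of these cells in the member values was not tested. Astrocyte markers were higher by a median of 1.97, more than any of the 5 members higher in astrocytes. S100a10, the second most abundant member in astrocytes per kilobase, did not pass (0.13 ± 0.14, edgeR adjusted p = 0.478), with 38.0 to 78.2 CPM in astrocytes and 42.8 to 49.2 CPM in flowthrough. Gfap passed at 1.85 ± 0.44 (edgeR adjusted p = 0.00458), and Vim did not, at -0.33 ± 0.16.

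Members induced by interferon were looked at through TTTC repeated after any 2 bases, the core of the interferon response element, on both strands. They were present in 7 of the 37 member promoters, those of Cxcl10, Fbln5, Gbp2, H2-T23, Srgn, Tgm1 and Tm4sf1, and in 3.44% of all promoters of the table. The windows of the 3 members known as interferon-induced or interferon-responsive are shown, with the fixed letters in capitals (GAAA in place of TTTC where the match is on the opposite strand), from chr5:92349083-92349112 (minus strand), chr3:142620594-142620623 (plus strand) and chr17:36032806-36032835 (minus strand):
Cxcl10: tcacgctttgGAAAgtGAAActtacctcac
Gbp2: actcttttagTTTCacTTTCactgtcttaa
H2-T23: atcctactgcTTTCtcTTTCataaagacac
The match began 213, 59 and 124 bases before the start of Cxcl10, Gbp2 and H2-T23. The KO over WT log2 fold changes of Cxcl10, Gbp2 and H2-T23 were -0.58, 0.04 and -0.05 with all 8 astrocyte libraries, -1.30, -0.64 and -0.56 in the 6 male-type libraries, and -0.66, 0.23 and 0.22 without WT 64. None of these values passed adjustment. The letters of a STAT site (TTCCNGGAA) were found in the promoter of Steap4 and in 1.15% of all promoters, those of a glucocorticoid response element in Serpina3n and Slc10a6 and in 0.475% of all promoters, and those of an NF-kB site (GGGAC followed directly by TTTCC) in no member promoter and in 0.155% of all promoters.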

How the data were processed

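Per the file headers, each of the 12 libraries has a deposited table with raw read counts, CPM and RPKM of 41388 genes and exon coordinates. Its counts, as deposited, are whole numbers. Dividing by the library total gives the deposited CPM, and the deposited RPKM equal those CPM per kilobase of summed exon length, so both served only as checks. The build GRCm38 and the tools STAR 2.5.1a, featureCounts 1.4.6-p5, Subread and bcl2fastq are named in the submitters' processing notes; strand setting, handling of shared reads and annotation version: not given in the sources used here. Per the labels' protocols, RNA was extracted with Trizol and libraries made with a SMARTer kit. No molecular identifiers are named, so floors cover counting error only. The labels give mouse numbers, and each group's libraries are separate mice.

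The tests on counts used edgeR 4.0.16 under R 4.3.3 (glmQLFit and glmQLFTest, two-sided), with TMM factors, filterByExpr by group and Benjamini-Hochberg adjustment over all genes that passed the filter. An adjusted p under 0.05 was called. KO and WT astrocytes were compared in the 8 astrocyte libraries, and all other comparisons in all 12 libraries with 4 group means. Levels are CPM scaled by the TMM factors of the 12 libraries. Fold changes are given with standard errors, levels with SD. The scripts were tested on simulated counts.

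Alternatives tried were DESeq2 1.42.0 and limma-voom (limma 3.58.1), and scaling by RLE or by library size. The filter was also dropped or set at CPM 1 or more. Further alternatives were a covariate for RNA of other cells, a block for the mouse, other library sets, and leaving out each library in turn. The covariate was the mean log2 CPM of microglia, oligodendrocyte and endothelial markers, and neuron markers were not part of it. For the fractions, the fit without both female-type libraries was chosen after seeing the data. Mouse numbers pair the fractions because they name the same animal; the correlations of deviations from group means were -0.00664, 0.155, 0.352 and 0.251 for mice 132, 56, 60 and 64. The members and lists were chosen with earlier results of these data known. Named with a value in every library were members with an unadjusted p under 0.05, the 2 of each class with the smallest p and the 2 with the highest level per kilobase. Of each context list, called genes and the 3 with the smallest p were named, and Arntl, Gfap and Vim in any case, most by their fold change only. Sphk1 and the members given in flowthrough or for their range were added after their values were seen. Of 217 listed symbols, all matched. Exons of 6 members (Cxcl10, Cp, Gbp2, Psmb8, Amigo2 and Sphk1) overlap a gene on the other strand. Sequences are RefSeq's (GRCm38.p6). Promoters matched for 28 of 34 members.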

Additional observations from a re-analysis of the deposited data

Results flagged for a closer look

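In each astrocyte group of 4, the highest and the lowest library of every member were compared with the nearest of the others. A gap that took up more of the group's range than Dixon's critical value for 4 samples set apart 10 values in 68 groups. The rate of about 1 in 20 groups flagged by chance holds for independent, normally distributed values. Here CPM were used without a log scale and all members share the same libraries, so the count cannot be read against that rate. All 10 were the highest of their group. KO 73 gave 4 of them: Serping1 at 42.0 CPM (21.2 to 23.3 in the other 3), Gbp2 at 40.1 CPM (13.6 to 17.2), Cd109 at 10.9 CPM (1.85 to 3.13) and Ptx3 at 0.617 CPM (0.0474 to 0.0846, near the floor of 3 counts). WT 64 gave Lcn2 at 130.5 CPM (2.52 to 18.7 in the other 3), Ptgs2 at 12.5 CPM (2.02 to 2.80) and Fkbp5 at 15.7 CPM (6.21 to 7.71). KO 62 gave Fkbp5 at 13.5 CPM (6.92 to 7.48). WT 57 gave Cxcl10 at 8.15 CPM (3.30 to 3.85) and Emp1 at 3.63 CPM (2.15 to 2.40). KO 73 was also the library with the most microglia marker RNA, and WT 64 that with the most endothelial marker RNA. Their part in these values was not tested.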

How the results depend on the processing

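The count of 0 members held under every alternative for flowthrough and for the interaction, and in astrocytes under all but DESeq2 (1, Amigo2) and the covariate for RNA of other cells (1, S100a10); each library left out gave 0. Between fractions the 20 members ranged from 13 to 26 with a library left out (13 without WT flowthrough 64) and from 18 to 29 otherwise. Of all genes, the 10333 called ranged from 7463 to 11458 with a library left out and from 9665 to 11158 otherwise. The replicate block, the mouse, gave 29 members and 10954 of all genes against 10333, and 0 in the interaction. KO and WT astrocytes share no mouse, so no block applies there. Class medians in astrocytes moved to -0.37, -0.51 and -0.49 (pan-reactive, A1, A2) with the covariate and to -0.38, -0.50 and -0.60 without both female-type libraries; leaving out a library gave -0.17 to 0.37, -0.34 to 0.27 and -0.39 to 0.56. In flowthrough it gave -0.47 to 0.19, -0.48 to 0.0048 and -0.55 to 0.0338. Over all genes, the 43 called in astrocytes became 28 with library size scaling, 183 with DESeq2, 181 with the covariate and 12 to 37 with a library left out; the 1 in flowthrough became 22 with DESeq2, 0 with limma-voom, 0 in the 4 flowthrough libraries alone and 0 to 5 with a library left out; the 0 of the interaction became 8 with DESeq2. The cause of these changes was not tested. With 4 mice a group, or 2 in flowthrough, standard errors of 0.17 to 1.15 in astrocytes and of 0.23 to 1.48 in flowthrough limit what could be seen, and a value that missed the threshold does not show that the labels were alike.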

Other observations

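Among complement genes outside the A1 class, C4b had the smallest p. C4b, a component of the classical pathway, had 128, 176, 180 and 110 CPM in KO astrocytes 60, 62, 73 and 132, against 108, 78.6, 89.0 and 80.2 CPM in WT astrocytes 56, 57, 64 and 78. Every KO library lay above every WT library, and the log2 fold change of 0.74 ± 0.19 missed the threshold (edgeR adjusted p = 0.310), while DESeq2 called it (adjusted p = 0.0475). Over 17 alternatives it lay between 0.59 and 0.86, also with KO 73 and WT 78 left out. In flowthrough C4b had 119 and 91.4 CPM in KO 60 and 132, against 75.1 and 54.1 CPM in WT 56 and 64 (0.70 ± 0.27, edgeR adjusted p = 1). Cfb, of the alternative pathway, had 0.095 to 0.237 CPM in KO and 0.176 to 0.979 CPM in WT astrocytes (-1.01 ± 0.65), with the highest value again in WT 64, and C3ar1, the receptor of a C3 fragment and a myeloid gene, gave 0.84 ± 0.58 with 75.2 CPM in KO 73, against 9.17 to 20.7 CPM in the other 3 KO libraries and 11.1 to 23.53 CPM in WT. Without KO 73 the value of C3ar1 was -0.14.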
